A study of Mus with 2 samples.

Results

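The respiratory chain of mouse bone marrow cells was followed through the transcripts of its subunits, encoded in part by nuclear genes and in part by the mitochondrial genome. The genes were taken by symbol: names beginning with Nduf and a subunit letter, the 4 Sdh genes, the Uqcr genes with Cyc1, the Cox4 to Cox8 genes and the Atp5 genes on the nuclear side, and the mt-Nd, mt-Co, mt-Cytb and mt-Atp genes on the mitochondrial side. This gave 99 of the 32285 genes listed, 86 nuclear and 13 mitochondrial. The nuclear members comprised 38 genes of complex I, 4 of complex II, 9 of complex III, 18 of complex IV and 17 of complex V. The mitochondrial members comprised 7 genes of complex I, 1 of complex III, 3 of complex IV and 2 of complex V. By position in GRCm38.p6, the nuclear members lay on 19 different nuclear chromosomes, with at most 8 on any of them. Ndufa4 was placed in complex I by its name, although the protein is known as a subunit of complex IV. Ndufab1, the acyl carrier protein of complex I, fell outside the name rule and was counted among the partner genes.

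The libraries were 3′ single-cell RNA libraries of hindlimb bone marrow, 1 from mice labelled ground and 1 from mice labelled running. The strain, age, sex, number of mice and the running regime are not given in the sources used here. After filtering, 8666 ground cells and 9080 running cells were kept, with a median of 5938 and 5145.5 unique molecular identifiers (UMIs, 1 per captured transcript) per cell. Before filtering, 24 cell barcodes occurred in both libraries. With 1 library in each group, the group and the library cannot be told apart and no difference between them was tested: the intervals below are exact 95% intervals that cover counting error only.

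The respiratory chain passes electrons from NADH through complex I, or from succinate through complex II, to complex III, cytochrome c and complex IV, where oxygen is reduced. Complexes I, III and IV pump protons out of the matrix, and complex V, the ATP synthase, uses their return to make ATP. Complex II is encoded by nuclear genes alone, whereas the other complexes join nuclear subunits, imported from the cytosol, with core subunits translated inside the mitochondrion. In the marrow, red cell precursors depend on mitochondria for haem synthesis, and mature neutrophils are known for few mitochondria and a reliance on glycolysis.

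Levels are given as CPM, the usual scaled count, here relative to all UMIs of the named cells in that library, or as percent of the same UMIs. The 3′ kit gives 1 tag per molecule, so levels of different genes were compared without division by length. Of the members, 81 nuclear and all 13 mitochondrial genes had at least 100 UMIs in both libraries together. The 5 below that level were all isoforms or relatives of complex IV or complex I subunits. Cox4i2, the alternative subunit 4, had 47 ground and 35 running UMIs, while Cox7b2 and Cox8b had 0 UMIs in either library. Cox8c had 0 and 1 UMI, and Ndufa4l2 had 0 and 3.

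Cells were placed in classes by marker genes after clustering without the 99 members, and each class is named for the cells whose markers it carried, with the ending "-like". The 14 classes with at least 50 cells in each library were compared. Nuclear subunits took the largest part of the transcriptome in erythroid-like and granulocyte-monocyte progenitor-like cells and the smallest in mature neutrophil-like cells. In erythroid-like cells they were 2.99% of UMIs in the ground library and 3.20% in the running library. In mature neutrophil-like cells they were 0.828% and 0.855%. The ratio of the highest to the lowest class was 3.61 in ground and 3.74 in running.

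The mitochondrial members were ordered differently. Plasmacytoid dendritic cell-like cells, the interferon-producing dendritic cells, stood highest, with 5.17% of UMIs in ground and 4.86% in running. B cell-like cells followed at 4.46% and 4.09%. Mature neutrophil-like cells were again lowest, at 0.562% and 0.486%, so that the highest class exceeded the lowest 9.19-fold in ground and 9.998-fold in running. Erythroid-like cells, first for nuclear members, had 3.15% and 3.45%, below the B cell-like, B-cell precursor-like, T cell-like and plasmacytoid classes in both libraries. Across the 14 classes, the nuclear and mitochondrial sums had a Pearson correlation of 0.36 in ground and 0.52 in running. The Spearman rank correlation was lower, 0.18 and 0.42. The classes share 2 libraries and differ in depth, so these correlations are given as a description.

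The nuclear to mitochondrial ratio therefore separated the classes more than the nuclear sum did. Mature neutrophil-like cells had the highest ratio, 1.47 in ground and 1.76 in running, followed by immature neutrophil-like cells at 1.17 and 1.16. Granulocyte-monocyte progenitor-like cells, at 1.04 and 0.962, lay near equality. B cell-like cells had the lowest ratio, 0.334 and 0.369, and T cell-like and plasmacytoid dendritic cell-like cells both had 0.404 in ground, with 0.502 and 0.435 in running. Between these, erythroid-like cells had 0.948 and 0.928, and monocyte-like cells 0.879 and 0.913. The class of stem and multipotent progenitors had 0.716 and 0.776. On summed UMIs, the neutrophil classes were at the top of this order in both libraries and B cell-like cells at the bottom.

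**Figure D1:**
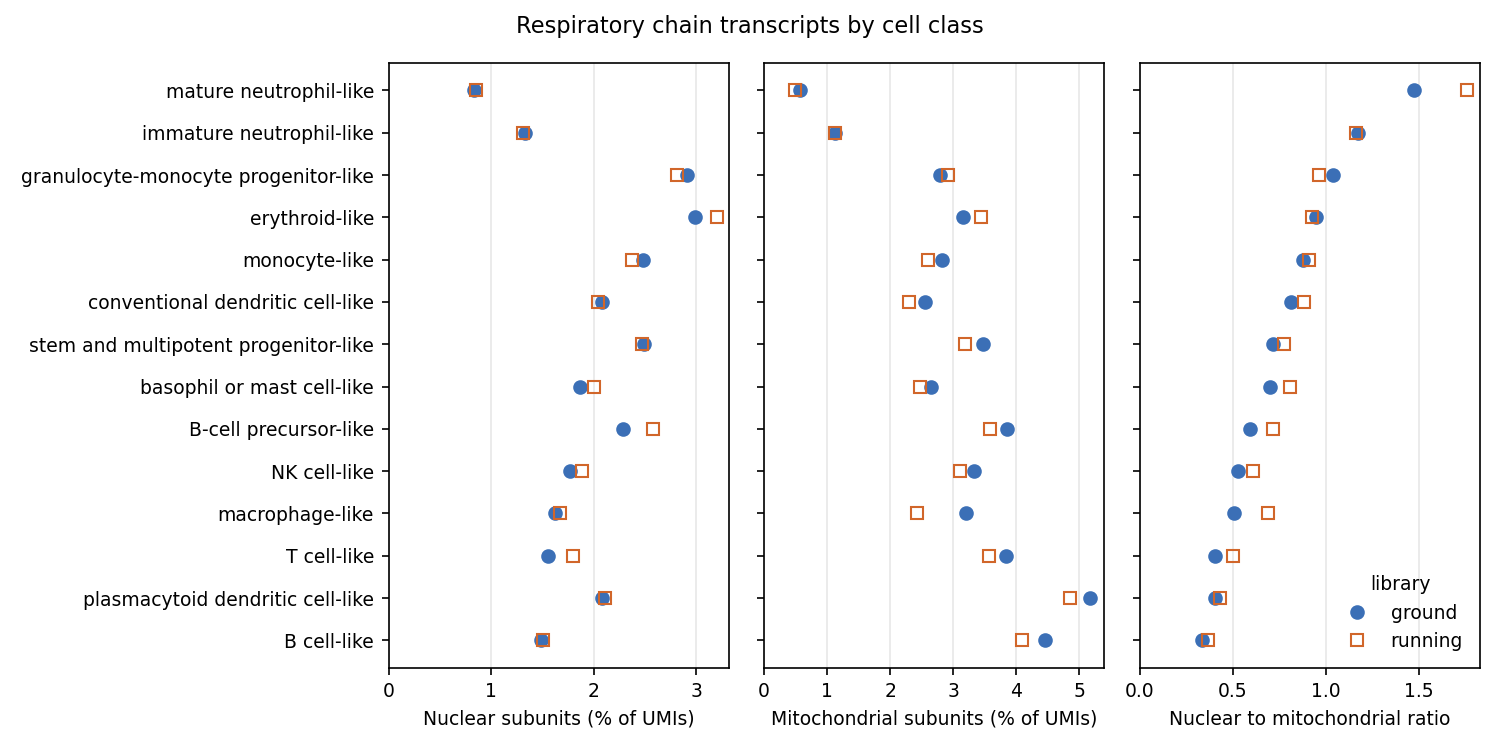
Percent of UMIs from nuclear members (left), percent from mitochondrial members (middle) and their ratio (right), by cell class on the vertical axis. Filled circles are the ground library and open squares the running library; the mature neutrophil-like class is lowest in both percentages and highest in the ratio, at 1.47 and 1.76.

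Shares of UMIs hide the size of the cells. A mature neutrophil-like cell held 43.7 nuclear and 29.7 mitochondrial member UMIs on average in ground, and 36.6 and 20.8 in running. A granulocyte-monocyte progenitor-like cell held 758 and 728 in ground and 764 and 794 in running. When each cell was thinned to 1000 UMIs, which left out 341 ground and 316 running cells, mature neutrophil-like cells had 0.844% and 0.883% nuclear UMIs. Erythroid-like cells had 2.74% and 2.93% on that scale, so the lowest class stayed well below. The nuclear to mitochondrial ratio of erythroid-like cells was then 1.23 in ground and 1.13 in running. Immature neutrophil-like cells had 1.22 and 1.20, so in ground they no longer stood above the erythroid-like class. Mature neutrophil-like cells stayed highest, at 1.60 and 1.89, and B cell-like cells lowest, at 0.322 and 0.350.

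Gene by gene, the classes at the ends were largely shared. Mature neutrophil-like cells were the lowest class for 66 of the 81 nuclear members in ground and 71 of 81 in running, and for 12 and 13 of the 13 mitochondrial members. Erythroid-like cells were the highest class for 39 nuclear members in ground and 53 in running, and granulocyte-monocyte progenitor-like cells for 18 and 9. Plasmacytoid dendritic cell-like cells were highest for 9 and 10 of the 13 mitochondrial members. A minority of genes departed from this. Ndufb7, an accessory subunit of complex I, was lowest in B cell-like cells, at 199 and 185 CPM. Atp5l, subunit g of the ATP synthase, was lowest in immature neutrophil-like cells, at 362 and 371 CPM, and highest in monocyte-like cells, at 787 and 776 CPM. Atp5g2, which encodes 1 of 3 precursors of the ring-forming c subunit, was highest in stem and multipotent progenitor-like cells, at 654 and 703 CPM.

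The makeup of the nuclear transcripts by complex differed modestly between classes. Over all cells, complex I gave 31.9% of nuclear member UMIs in ground and 31.6% in running, complex V 30.5% and 30.9%, complex IV 26.2% and 25.96%, complex III 10.03% and 10.2%, and complex II 1.40% and 1.38%. Immature neutrophil-like cells had the complex I share at 35.4% and 35.8%, with complex III at 8.47% and 8.59%. Erythroid-like cells had more complex III, 11.3% and 11.6%. The mitochondrial makeup varied more widely. Complex IV genes were 67.1% and 63.5% of mitochondrial UMIs in mature neutrophil-like cells against 49.1% and 47.8% in erythroid-like cells. The mitochondrial complex I genes made up 10.3% and 12.7% in the former and 19.7% and 20.9% in the latter.

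mt-Co1, the catalytic subunit of complex IV, accounted for most of this contrast. It was 30.5% of mitochondrial UMIs in mature neutrophil-like cells of the ground library and 26.5% in the running library. The immature class had 23.2% and 22.2%. The erythroid-like class, with the lowest share, had 13.4% in both. mt-Nd1, a membrane subunit of complex I, ran the other way. Its share was 2.22% and 2.78% in mature neutrophil-like cells. Erythroid-like cells had 6.90% and 7.63%, again the extremes of the 14 classes.

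The neutrophil classes beside the granulocyte-monocyte progenitor-like class gave the clearest view of how single subunits differ. That progenitor class was mixed. Cluster 5, with 328 ground and 279 running cells, had the monocyte marker F13a1 among its leading genes, beside Prtn3, Mpo and Ctsg. Cluster 21, with 277 and 177 cells, was led by Elane. The order below is one of classes, and descent between them was not tested. Along granulocyte-monocyte progenitor-like, immature and mature neutrophil-like cells, the nuclear sum went from 2.91% to 1.33% to 0.828% of UMIs in ground and from 2.81% to 1.31% to 0.855% in running. All 78 nuclear members with at least 100 UMIs in each of the progenitor and mature classes were lower in the mature class in both libraries, as were all 12 such mitochondrial members. Among all genes with that many UMIs in each class, 60.2% were lower in ground and 59.8% in running. The median log2 ratio of mature over progenitor CPM was −2.05 and −1.93 for the nuclear members, −2.79 and −2.98 for the mitochondrial members, and −0.41 and −0.38 for all such genes. Cells in both classes come from the same library, so these are differences between classes of 1 library, seen in each of the 2.

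The steepest differences were in the c subunit of the ATP synthase and in accessory subunits of complex I. Atp5g1 had 604 CPM in progenitors, 79.9 in immature and 21.8 in mature cells of the ground library, and 518, 81.8 and 25.7 in the running library, a log2 ratio of −4.79 and −4.33. Atp5g2 had log2 ratios of −4.24 and −3.88. Ndufa5 and Ndufc2, both accessory subunits of complex I, had −4.09 and −4.12, and −3.98 and −4.16. Cyc1, the cytochrome c1 of complex III, had 173, 48.2 and 15.2 CPM in ground and 154, 51.9 and 15.6 in running. Ndufa4 went from 761 to 281 to 75.2 CPM in ground and from 705 to 290 to 81.2 in running.

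Other subunits of the same complexes kept more of their CPM. CPM is a share of UMIs, and median depth per cell fell along this series. It was 24864, 12424 and 4836 UMIs in ground and 25681, 10268.5 and 3885 in running. The highest log2 ratios of mature over progenitor among nuclear members, −0.58 and −0.54, still lay below the medians of all genes compared, −0.41 and −0.38. Ndufa13, an accessory subunit of complex I, had 320, 255 and 214 CPM in ground and 315, 247 and 211 in running, so that the mature class held 67.0% and 66.9% of the progenitor level. Atp5l had 749, 362 and 444 CPM in ground and 724, 371 and 489 in running. Cox7a2l, which is known for its role in joining complexes III and IV, had 204, 94.9 and 136 CPM in ground and 208, 91.0 and 135 in running. Atp5l, Cox7a2l and Ndufa7, a further complex I subunit, thus had a higher CPM in mature than in immature cells in both libraries. Cox4i1, the common form of subunit 4 of complex IV, lay between these and the steep genes, with log2 ratios of −1.41 and −1.32. Of complex II, the flavoprotein gene Sdha had −1.60 and −1.64 and the membrane anchor gene Sdhc −2.39 and −2.30.

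The mitochondrial genes were also unequal, although most are cut from shared precursor transcripts. mt-Nd1 had 1586, 320 and 125 CPM in ground and 1717, 362 and 135 in running, a log2 ratio of −3.67 in both. mt-Co1 had 4310, 2621 and 1715 CPM in ground and 4406, 2509 and 1290 in running, or −1.33 and −1.77. mt-Cytb, cytochrome b of complex III, had −2.92 and −3.05, and mt-Atp6, the proton channel subunit of complex V, −2.58 and −2.81.

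**Figure D2:**
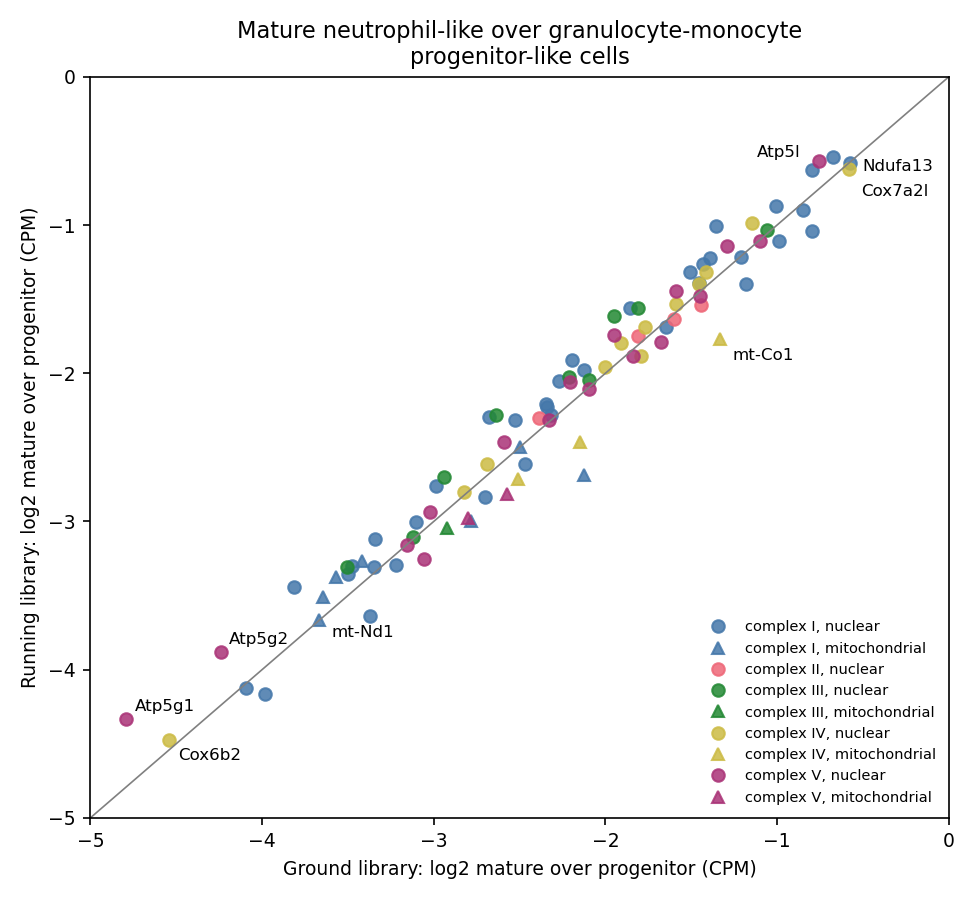
Log2 ratio of mature neutrophil-like over granulocyte-monocyte progenitor-like CPM for each member with at least 100 UMIs in either class or both, ground library on the horizontal and running library on the vertical axis. Circles are nuclear and triangles mitochondrial members, coloured by complex, and the line marks equality. Atp5g1 has −4.79 and −4.33, Cox6b2, with under 100 UMIs in the mature class, −4.54 and −4.47, and Ndufa13 is among the highest at −0.58 in both.

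Among the isoforms of complex IV, Cox6a2 and Cox6b2 were markedly uneven between classes. Cox6a2, known as the heart and muscle form of subunit 6a, was found mainly in plasmacytoid dendritic cell-like cells, where it had 1285 UMIs in ground and 1900 in running, or 1333 and 1348 CPM. At least 1 UMI was present in 92.4% of these cells in ground (exact interval 86.8% to 96.2%) and 90.4% in running (85.3% to 94.2%), at median depths of 6561 and 6946 UMIs. In mature neutrophil-like cells, which stand for background, 0.477% and 0.419% had a UMI, at median depths of 4836 and 3885. The plasmacytoid class held 72.3% of all Cox6a2 UMIs in ground and 88.7% in running. In the plasmacytoid cells, Cox6a1, the form of most other tissues, had 175 and 199 CPM, so Cox6a2 was 88.4% and 87.2% of the UMIs of the pair. Neither gene had been used to cluster or name the cells.

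The Cox6a2 difference over all cells depended on the class proportions. Its level was 21.7 CPM in ground and 27.3 in running, a log2 ratio of 0.33 that was −0.06 when both libraries were given the class proportions of ground. Outside the plasmacytoid class, natural killer cell-like cells had 109 and 8.52 CPM, where 30 of the 32 ground UMIs lay in 1 cell. The stem and multipotent progenitor class had 24.0 and 17.7 CPM. In granulocyte-monocyte progenitor-like cells there were 285 UMIs in ground and 62 in running, 18.1 and 5.001 CPM. Single cells held up to 67 and 20 of these UMIs. The summed plasmacytoid markers in that class were 678 and 666 CPM, with none of the 9 at 0 in either library, and the summed plasma cell markers were 539 and 163 CPM. Their part in the Cox6a2 difference was not tested.

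Cox6b2, known as the testis form of subunit 6b, was highest in erythroid-like cells in this marrow, though not confined to them. They had 190 CPM in ground and 194 in running, from 2039 and 2333 UMIs, which were 59.9% and 64.3% of all its UMIs. A UMI was found in 56.9% of these cells in ground and 61.0% in running, at median depths of 8245 and 15921, against 0.745% and 0.811% of mature neutrophil-like cells. Cox6b2 supplied 22.3% and 21.9% of the subunit 6b UMIs of erythroid-like cells, and Cox6b1 the rest. The stem and multipotent class came next, at 105 and 94.5 CPM. Granulocyte-monocyte progenitor-like cells held 518 and 521 UMIs, at 32.9 and 42.0 CPM, and basophil or mast cell-like cells had 55.6 and 34.0 CPM from 39 and 33 UMIs.

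Other isoforms differed in balance between classes. Cox7a2l exceeded Cox7a2, its close relative in complex IV, in 2 of the lymphoid classes and in both dendritic classes. T cell-like cells had 446 and 410 CPM of Cox7a2l against 269 and 308 of Cox7a2, and B cell-like cells 359 and 339 against 245 and 276. Conventional dendritic cell-like cells had 489 and 393 against 329 and 321. Plasmacytoid dendritic cell-like cells had 355 and 357 against 302 and 330. B-cell precursor-like cells had less Cox7a2l than Cox7a2, 476 and 401 CPM against 504 and 559, and natural killer cell-like cells had close levels of the pair, 346 and 354 against 340 and 377. In erythroid-like cells Cox7a2 was far ahead, with 180 and 197 CPM of Cox7a2l against 617 and 649 of Cox7a2. Cox7a1, the muscle form, had 93 and 105 UMIs in all. Of the c subunit genes, Atp5g1 led in erythroid-like cells with 677 and 822 CPM, against 375 and 471 of Atp5g2. Atp5g2 led in T cell-like cells, with 53.9% and 47.6% of the UMIs of the 3 genes, and in plasmacytoid dendritic cell-like cells, with 54.4% and 56.6%. That lead was not particular to them. B cell-like cells had 340 and 374 CPM of Atp5g2 against 170 and 195 of Atp5g1. Conventional dendritic cell-like cells had 478 and 438 against 270 and 223. Mature neutrophil-like cells had 32.2 and 41.4 CPM of Atp5g2 beside 36.1 and 35.2 of Atp5g3.

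**Figure D3:**
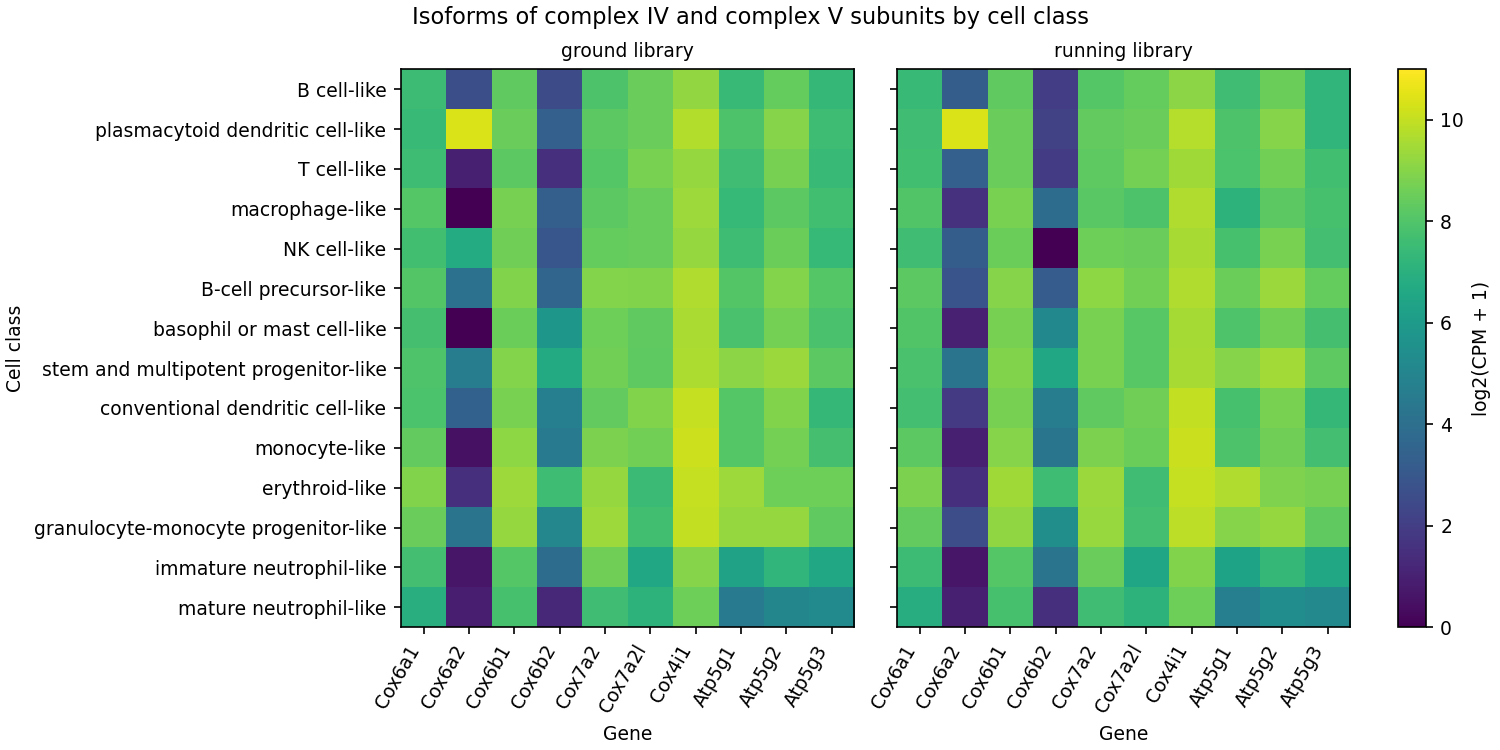
Level of complex IV isoforms, Cox4i1 and the c subunit genes of complex V as log2(CPM + 1), by cell class on the vertical and gene on the horizontal axis, ground library left and running library right. Cox6a2 stands out in plasmacytoid dendritic cell-like cells (1333 and 1348 CPM) and Cox6b2 in erythroid-like cells (190 and 194 CPM).

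Over all cells, the running and ground libraries differed little in these genes. Nuclear members made up 1.98% of UMIs in ground and 2.03% in running, a log2 ratio of running over ground of 0.0383 (0.0352 to 0.0415), which was −0.02 as the mean over cells, −0.03 after thinning and −0.02 without haemoglobin and granule genes in the total. The list called granule genes also held S100a8 and S100a9, at 68664 and 71081 CPM in ground and 61240 and 59744 in running. Mitochondrial members made up 2.18% and 2.29%, a log2 ratio of 0.0757 (0.0727 to 0.0787) that was −0.09 both as the mean over cells and after thinning. The nuclear to mitochondrial ratio was 0.907 and 0.884, a log2 ratio of −0.04 that became 0.07 and 0.05 under those 2 settings. No member lay past a log2 ratio of 0.5 in either direction, whereas 8.19% of the 12618 genes with at least 100 UMIs did. Above 0 were 55 of the 81 nuclear members, beside 70% of those genes. The median of those genes was 0.08, that of the 81 nuclear members 0.03 and that of the 13 mitochondrial members 0.14.

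Among nuclear members over all cells, each complex held values on both sides of 0. In complex I, Ndufb1-ps, a subunit gene, had 403 and 457 CPM (log2 0.18) and Ndufa3, an accessory subunit, 205 and 228 CPM (0.15). At the other end, Ndufv3, an accessory subunit of the NADH-binding arm, had 167 and 150 CPM (−0.15) and Ndufb7 343 and 320 CPM (−0.10). Ndufa4, the most abundant, had 442 and 446 CPM (0.01).

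The 4 complex II genes lay between −0.02 for Sdhc and 0.06 for Sdhd, with the iron-sulfur subunit gene Sdhb, the most abundant, at 91.8 and 92.9 CPM (0.02) and Sdha at 80.6 and 81.8 CPM (0.02). In complex III, Uqcrh, the hinge protein and most abundant, had 459 and 473 CPM (0.04), Uqcr11 291 and 323 CPM (0.15) and Uqcr10 268 and 290 CPM (0.12). Uqcrb had 240 and 231 CPM (−0.05).

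Complex IV had the widest span of the complexes, set by its tissue isoforms. Cox6a2 had the highest ratio of any nuclear member (0.33, or −0.06 with ground class proportions, as above). Cox7a1, with few UMIs, had 0.24 (interval −0.17 to 0.66), and Cox6b2 had 41.5 and 46.3 CPM (0.16), which was −0.19 as the mean over cells and −0.44 after thinning. Cox8a, the most abundant nuclear member over both libraries together, had 743 and 778 CPM (0.07), Cox5a 375 and 353 CPM (−0.09) and Cox6a1 270 and 256 CPM (−0.08). In complex V, Atp5md had 245 and 279 CPM (0.19), Atp5e, the epsilon subunit, 608 and 686 CPM (0.18), Atp5j, coupling factor 6, 374 and 354 CPM (−0.08), and Atp5h 577 and 558 CPM (−0.05).

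All 13 mitochondrial genes had a higher summed CPM in the running library, and 6 of them, mt-Nd1, mt-Atp8, mt-Nd3, mt-Nd4l, mt-Nd5 and mt-Nd6, kept that sign under every setting tried, while the other 7 were lower in running as the mean over cells and after thinning, mt-Co1 and mt-Co3 also without haemoglobin and granule genes in the total. mt-Nd4l had 99.6 CPM in ground and 132 in running (log2 0.41), mt-Nd6 9.82 and 12.4 (0.34), mt-Atp8 56.2 and 70.4 (0.32) and mt-Nd3 342 and 425 (0.31). mt-Nd1 had 1105 and 1295 CPM (0.23), and mt-Nd5 had 235 and 260 CPM (0.14). Of the 7 others, mt-Co1 had 3660 and 3698 CPM (0.01), mt-Co2 3676 and 3847 (0.07) and mt-Co3 4398 and 4489 (0.03), the core subunits of complex IV. mt-Nd2 had 847 and 936 CPM (0.14) and mt-Nd4 1067 and 1134 (0.09), both of complex I. mt-Cytb had 1914 and 1989 CPM (0.06) and mt-Atp6 4361 and 4658 (0.10). Except for mt-Atp8, the genes that kept their sign encode complex I subunits. mt-Atp8 overlaps mt-Atp6, mt-Nd4l overlaps mt-Nd4, and mt-Nd6 lies on the other strand next to mt-Nd5, so the counts of these genes are uncertain at those borders.

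Within classes, mitochondrial members mostly had a lower level in the running library, whereas nuclear members varied in direction. The nuclear to mitochondrial ratio was higher in running in 11 of the 14 classes, each with an interval above 0, and lower in 3. The mitochondrial sum was lower in running in 12 classes. The nuclear sum was higher in 9 classes, 7 of them with an interval above 0, and lower in 5, 4 of them with an interval below 0. Over the alternative settings, the ratio was higher in running in 10 to 12 classes of the 13 or 14 that could be compared. The sign of the ratio was the same in every setting for 10 classes and varied for erythroid-like, immature neutrophil-like, monocyte-like and plasmacytoid dendritic cell-like cells.

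**Figure D4:**
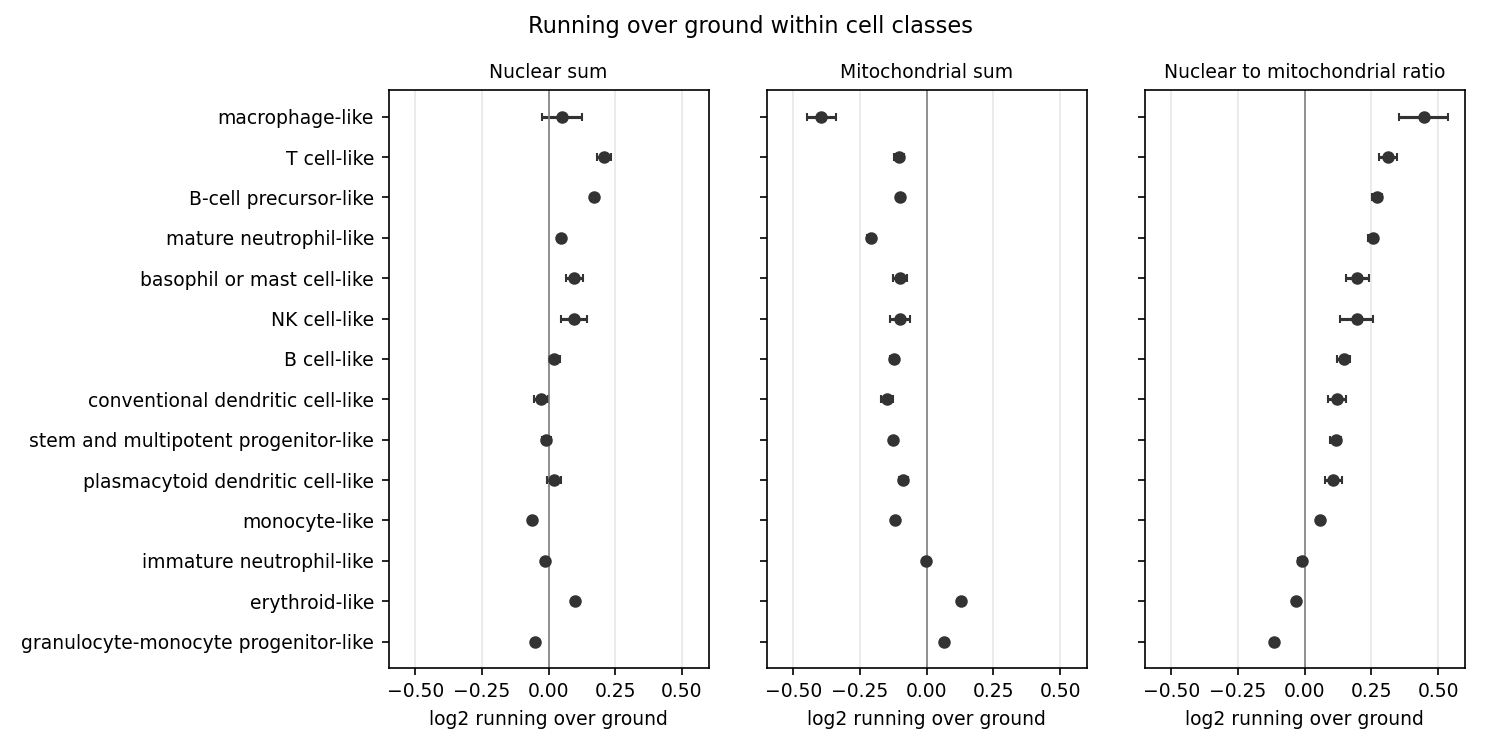
Log2 ratio of running over ground for the nuclear sum (left), the mitochondrial sum (middle) and the nuclear to mitochondrial ratio (right), by cell class. Points are the values and bars the exact 95% counting intervals, which do not cover differences between animals or preparations; macrophage-like cells have the highest ratio at 0.45 and granulocyte-monocyte progenitor-like cells the lowest at −0.11.

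T cell-like cells, 206 in ground and 288 in running, had the largest nuclear difference. Nuclear members were 1.55% of UMIs in ground and 1.80% in running (log2 0.21, interval 0.18 to 0.24), and mitochondrial members 3.85% and 3.58% (−0.10). Of 77 nuclear members with at least 100 UMIs, 65 were above 0, where 51.9% of all such genes were. By complex, nuclear complex I had a log2 ratio of 0.24, complex IV 0.23, complex V 0.19 and complex III 0.15, while complex II had −0.04. Past the 0.5 cut-off lay 5 members, against 9.56% of the 3881 genes compared.

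Those 5 belonged to 3 complexes. Ndufs8, an iron-sulfur subunit of complex I, had 43.2 and 74.2 CPM (log2 0.78). Ndufb1-ps had 189 and 288 CPM (0.61), and Atp5md, a small ATP synthase subunit, had 162 and 243 CPM (0.58). The mitochondrial mt-Atp8, the other membrane subunit of ATP synthase, had 77.0 and 127 CPM (0.72), and Sdhc of complex II went the other way with 45.1 and 31.1 CPM (−0.54, interval −1.12 to 0.05). Other features of these cells differed between the libraries as well. The proliferation genes Mki67 and Top2a summed to 96.7 and 329 CPM, the natural killer cell markers to 5944 and 8635 CPM with 6 of 10 higher in running, and the median depth was 4514.5 and 5762 UMIs. Their part in the difference was not tested.

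B-cell precursor-like cells, 481 in ground and 566 in running, had the same pattern. Nuclear members were 2.28% and 2.57% (log2 0.17, interval 0.16 to 0.19) and mitochondrial members 3.85% and 3.59% (−0.10). Above 0 were 71 of 78 nuclear members, where 40.4% of all genes compared were, and the all-gene median was −0.07. One member lay past the cut-off, against 9.13% of genes. It was Ndufv1, the flavin-binding core subunit of complex I, with 59.5 and 87.3 CPM (0.55). Atp5g1 came next with 264 and 373 CPM (0.50, just below the cut-off), and Cox7a2l was the lowest nuclear member with 476 and 401 CPM (−0.25).

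The class held 2 large clusters in unequal numbers. Cluster 9 had 145 ground and 234 running cells with a nuclear log2 ratio of 0.15 and a nuclear to mitochondrial log2 ratio of 0.19. Cluster 12 had 336 and 332 cells, with 0.01 and 0.04. After thinning, the nuclear ratio of the whole class was 0.09.

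Mature neutrophil-like cells, 3355 in ground and 3822 in running, differed on the mitochondrial side. Mitochondrial members were 0.562% of UMIs in ground and 0.486% in running (log2 −0.21), and the nuclear to mitochondrial ratio had a log2 ratio of 0.26 (0.24 to 0.27). The nuclear sum, with 0.05, was −0.01 without haemoglobin and granule genes in the total and −0.03 without the clusters held mostly by 1 library. Above 0 were 47 of 78 nuclear members, against 67.5% of all genes compared, and 0 members lay past the cut-off, against 13.3% of genes. mt-Co1 had 1715 and 1290 CPM (−0.41), the lowest value among members. mt-Nd4l had 13.7 and 19.2 CPM (0.49). Summed by complex, mitochondrial complex IV was at −0.29 and complex I at 0.09. Complex I was itself uneven. mt-Nd1, mt-Nd2 and mt-Nd3 had 0.11, 0.17 and 0.31, while mt-Nd4 had 0.03 (−0.03 to 0.09) and mt-Nd5 −0.22. mt-Cytb of complex III had −0.11, and in complex V mt-Atp6 had −0.14 and mt-Atp8 0.09.

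The mature clusters were filled unequally by the libraries. Clusters 4 and 17 held 1112 and 892 ground cells but 51 and 57 running cells, and clusters 18 and 19 held 168 and 86 ground cells but 1162 and 1195 running cells. The ratio was above 0 inside each of these, with log2 values of 0.18, 0.29, 0.44 and 0.44. It was 0.17 and 0.12 in clusters 0 and 1, which held 758 and 685, and 339 and 672 cells. Without the clusters held mostly by 1 library, the class value was 0.18. The markers of immature neutrophils summed to 41517 and 32949 CPM in the class, and their part in the difference was not tested.

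Macrophage-like cells, 62 in ground and 216 in running, had the largest ratio difference and the thinnest data. Mitochondrial members were 3.20% and 2.43% (log2 −0.40, interval −0.45 to −0.34), nuclear members 1.62% and 1.68% (0.05, −0.02 to 0.12), and the ratio 0.506 and 0.689 (0.45, 0.35 to 0.54). As the mean over cells, the mitochondrial value was −0.10 and the ratio 0.20. Above 0 were 26 of the 41 nuclear members with enough UMIs, beside 48.3% of genes. Past the cut-off lay 8 of the 41 nuclear members and 1 mitochondrial member, where 26.3% of the 837 genes compared lay past it. Atp5k, subunit e of ATP synthase, had 17 and 144 UMIs, or 156 and 287 CPM (0.88). mt-Nd1 had 1790 and 1256 CPM (−0.51). The median depth was 803 and 942.5 UMIs, haemoglobin genes summed to 19945 and 648 CPM and mature neutrophil markers to 65203 and 128515 CPM, with 11 of the 14 higher in running. Their part in these values was not tested.

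Erythroid-like cells, 547 in ground and 474 in running, were the one class in which both sums were higher in running. The nuclear log2 ratio was 0.10 (0.09 to 0.11) and the mitochondrial 0.13 (0.12 to 0.14). Above 0 were 72 of 79 nuclear members and all 13 mitochondrial members, where 55.6% of all genes compared were. The one member past the cut-off was mt-Nd4l, with 103 and 154 CPM (0.57), against 10.1% of genes. The mitochondrial complex I genes had a log2 ratio of 0.22. In cluster 26, 238 ground and 193 running cells with few mitochondrial UMIs, the mitochondrial members were 1.07% and 1.36% (0.35) while the nuclear members were 3.03% and 3.25% (0.10). Haemoglobin genes summed to 79910 CPM in ground and 48862 in running and the median depth was 8245 and 15921 UMIs. With haemoglobin and granule genes out of the total, the nuclear value was 0.04 and the mitochondrial 0.08.

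Granulocyte-monocyte progenitor-like cells, 605 in ground and 456 in running, went against most classes. Nuclear members were 2.91% and 2.81% (log2 −0.05) and mitochondrial members 2.79% and 2.92% (0.06), so the ratio had a log2 ratio of −0.11 (−0.12 to −0.11), of the same sign in every setting tried. Below 0 were 64 of 80 nuclear members, whereas 50.6% of all genes compared were above 0. Cox6a2, described above, was the member past the cut-off (log2 −1.85), against 5.13% of genes. Next to it, Atp5g1 had 604 and 518 CPM (−0.22). The clusters of the class, 5 and 21, had ratio values of −0.09 and −0.15.

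The remaining lymphoid and dendritic classes had smaller nuclear differences. B cell-like cells had a nuclear log2 ratio of 0.02 and a mitochondrial one of −0.12, which was 0.00 with doublets kept, with 43 of 78 nuclear members above 0 beside 40.1% of genes, and 0 past the cut-off beside 6.66%. Natural killer cell-like cells had 0.10 and −0.10, with 34 of 51 above 0 beside 50.9%. Their 1 member past the cut-off, beside 8.56% of genes, was the complex I gene Ndufa6 (log2 0.56). Plasmacytoid dendritic cell-like cells had 0.02 and −0.09, with 45 of 78 above 0 beside 48.6%, and 0 past the cut-off beside 5.55%. Conventional dendritic cell-like cells had −0.03 and −0.15, with 34 of 77 above 0 beside 48%. The gene past the cut-off there was Ndufa1, needed for complex I assembly, at 130 and 200 CPM (0.62), beside 9.66% of genes. S100a8, a mature neutrophil marker, had 3886 CPM in ground and 9984 in running in B cell-like cells. It had 1630 and 4997 in natural killer cell-like cells, 2395 and 3315 in the plasmacytoid class and 2332 and 2388 in the conventional dendritic class. Its part in the values of these classes was not tested.

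The remaining myeloid and progenitor classes varied in sign on the nuclear side. Monocyte-like cells had −0.06 and −0.12, and only 15 of 79 nuclear members were above 0, beside 50.2% of genes, with 0 past the cut-off beside 8.05%. Ndufs7, a core iron-sulfur subunit of complex I, had 146 and 117 CPM in them (−0.31). Basophil or mast cell-like cells had 0.10 and −0.10, with 55 of 72 above 0 beside 46%. Cox5b, a complex IV subunit, was past the cut-off there at 317 and 458 CPM (0.53), beside 11.3% of genes. Immature neutrophil-like cells had −0.01 and −0.00, with 40 of 79 above 0 beside 66.4% and 0 past the cut-off beside 4.83%, although their mitochondrial complex I genes had 0.24. The stem and multipotent progenitor class had −0.01 and −0.13, with 34 of 80 above 0 beside 52.2% and 0 past the cut-off beside 7.43%.

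The share of each gene among mitochondrial UMIs takes out the mitochondrial total. mt-Nd3 and mt-Nd4l had a higher share in running in 14 of 14 classes, mt-Nd1 and mt-Atp8 in 13, mt-Nd6 in 12 and mt-Nd5 in 11. mt-Co3 had a higher share in running in 1 class, mt-Cytb in 4 and mt-Nd4 in 5. In mature neutrophil-like cells, mt-Nd3 was 0.753% in ground and 1.08% in running, and in natural killer cell-like cells 1.34% and 1.93%. mt-Nd4l was 0.243% and 0.396% in mature neutrophil-like cells. Erythroid-like cells had 0.334% and 0.445% of it. The classes share the same 2 libraries, so 14 classes of 1 sign are not 14 separate observations.

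**Figure D5:**
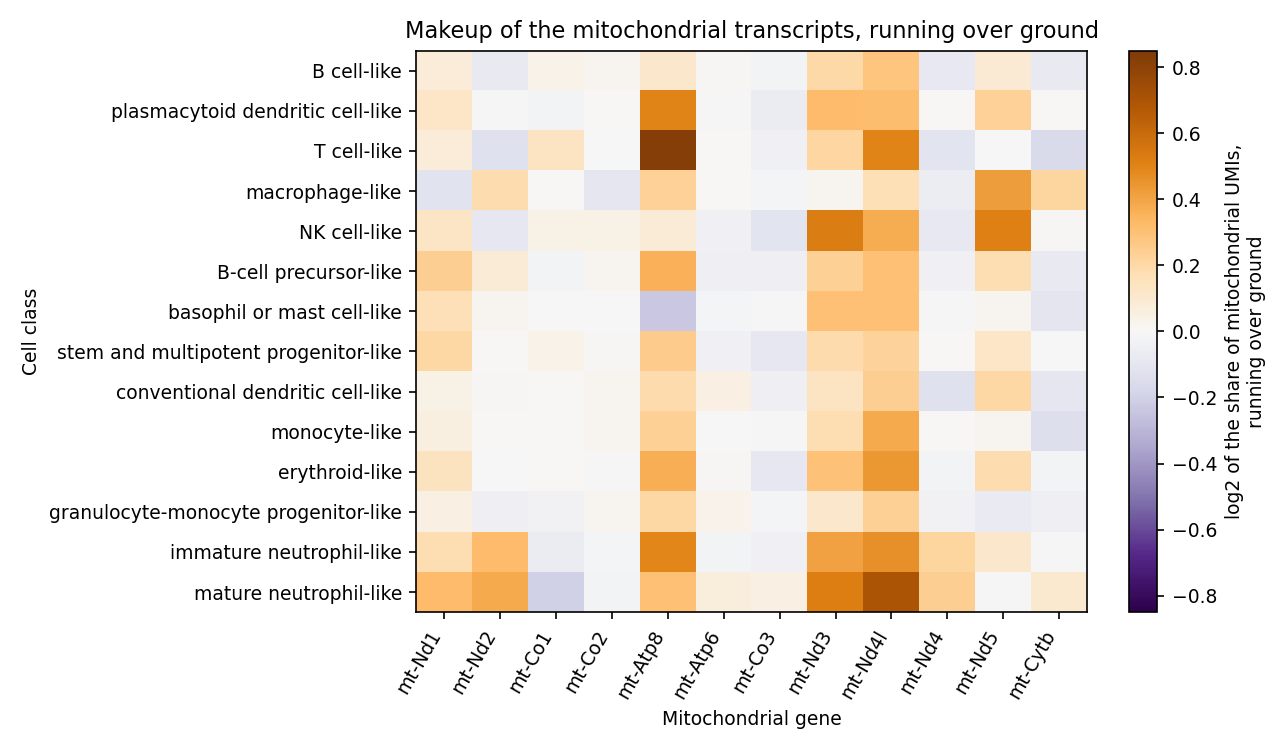
Log2 ratio, running over ground, of each gene's share of mitochondrial UMIs, by cell class on the vertical and gene on the horizontal axis. Orange is a higher share in the running library and purple a lower one; mt-Nd3 and mt-Nd4l are orange in all 14 classes, and mt-Nd6 is left out because it had 0 UMIs in ground macrophage-like cells.

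Genes that build and feed the chain were read beside it from lists of companion genes. Over all cells, none of the 48 assembly factors, 17 citric acid cycle enzymes, 26 genes for expression of mitochondrial DNA, 78 mitochondrial ribosomal proteins, 25 import genes, 14 biogenesis regulators and 19 carriers and partners with at least 100 UMIs lay past the cut-off. Their median log2 ratios were 0.09, 0.05, 0.11, 0.05, 0.08, 0.06 and 0.01, beside 0.08 for all genes. The extremes were modest. Ppargc1b, a coactivator of mitochondrial biogenesis, had 3.57 and 4.67 CPM (0.39), Mcub, a subunit that dampens the mitochondrial calcium uniporter, 27.1 and 22.1 CPM (−0.30), and Mdh2, the malate dehydrogenase of the citric acid cycle, 204 and 182 CPM (−0.17).

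By class, the companion lists did not all lie on the same side of 0. In erythroid-like cells, where the nuclear members had a median of 0.10, it was 0.25 for assembly factors, 5 of 47 of which lay past the cut-off higher in running beside 6.01% of all genes, 0.26 for import, 0.21 for the mitochondrial ribosome and 0.20 for mitochondrial DNA expression. The citric acid cycle had 0.11 and the carriers and partners 0.05, whereas the biogenesis regulators had −0.08, beside 0.04 for all genes. In granulocyte-monocyte progenitor-like cells, where the nuclear members had −0.07, the medians were −0.16 for import, −0.15 for the mitochondrial ribosome, −0.12 for the citric acid cycle, −0.10 for carriers and partners and −0.08 for assembly factors. Mitochondrial DNA expression had −0.02 and the biogenesis regulators 0.01, beside 0.00 for all genes. In T cell-like cells, with the largest nuclear subunit difference, the mitochondrial ribosome had a median of 0.01 over 47 genes and import 0.06 over 18 genes. Carriers and partners had 0.17 over 14 genes, assembly factors 0.09 over 14 and biogenesis regulators 0.03 over 5. The citric acid cycle had −0.03 over 11 genes and mitochondrial DNA expression −0.21 over 5, beside 0.01 for all genes.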

How the data were processed

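Gene-by-barcode matrices of raw UMI counts, deposited by the authors for each library, were used; they were made with Cell Ranger 5.0.0, per the file headers; the submitters' processing notes also list STAR and the mm10 build. Kept barcodes had at least 500 UMIs, at least 250 genes and at most 10% mitochondrial UMIs; Scrublet then removed 243 ground (2.73%) and 100 running (1.09%) cells as doublets. Kept cells held 82105712 and 78405673 UMIs. Cells of both libraries were clustered together (Leiden, 34 clusters, resolution 1, 30 principal components, 15 neighbours, 2000 variable genes without the members) with scanpy 1.11.5, igraph 0.11.9 and scikit-learn 1.9.0 in Python 3.11.15, and clusters were named from marker lists where at least 3 markers were detected. UMIs were summed per class and library; CPM, log2 ratios and exact 95% Poisson, Clopper-Pearson and conditional binomial intervals were computed with numpy 2.4.6, pandas 2.3.3 and scipy 1.17.1, figures with matplotlib 3.10.9. A gene was compared with at least 100 UMIs in both libraries together and counted as past the cut-off at a log2 ratio of 0.5 in size. PCR duplicates are collapsed by UMI, and intervals cover counting error only. The interval function and the cut-off were tested on Poisson counts simulated from the pooled T cell-like profile, the error model those intervals assume. Clustering, class naming and doublet removal were not tested in this way.

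Members matched RefSeq (GRCm38.p6) by symbol (84), synonym (2) or mitochondrial name (13). The members, gene lists and markers were chosen with earlier results of these data known. The naming rule took all mitochondrial members, tissue isoforms and complex II genes, per complex the most abundant nuclear member and the 2 highest and 2 lowest ratios, per class the 2 highest and 2 lowest, and the extremes of each companion list; of the genes it gives per class and per companion list, and of the isoforms, only some are printed, and other genes were chosen after their values were seen. Alternatives changed the cell filters, doublet removal, weighting of cells, depth, the CPM total, the members, class proportions, clustering and the cut-off. The reduced CPM total left out haemoglobin genes and a list called granule genes that also held S100a8, S100a9 and Cybb. Leaving out clusters of doubtful makeup was chosen after seeing the data.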

Additional observations from a re-analysis of the deposited data

How the results depend on the processing

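No paired analysis was possible because each group has 1 library, and no library could be left out. The nuclear log2 ratio over all cells, 0.0383, was 0.0346 without the mitochondrial filter, 0.0430 with doublets kept, −0.0171 as the mean over cells, −0.0341 after thinning, −0.0170 without haemoglobin and granule genes in the total, 0.0973 with ground class proportions and 0.0328 without doubtful clusters. The mitochondrial one, 0.0757, was −0.0865, −0.0875 and 0.0203 under the mean, thinning and the reduced total, 0.0708 without the most abundant members and 0.1084 with ground proportions. The ratio of both, −0.0374, was 0.0694, 0.0534 and −0.0111 under the mean, thinning and ground proportions. At a cut-off of 0.25, 5 members passed in place of 0. The highest over lowest class of the nuclear sum, 3.61 in ground and 3.74 in running, was 3.80 and 3.85 without the mitochondrial filter, 3.64 and 3.80 with doublets kept, 3.37 and 3.33 as the mean, 3.37 and 3.32 after thinning, 2.43 and 2.52 with the reduced total, and 3.70 and 3.85 without the most abundant members. In ground it was 3.67 with members among the variable genes and 3.43 without doubtful clusters. The mean over cells, thinning and the reduced total moved the median of all genes by −0.076, −0.073 and −0.055. Thinning left too few macrophage-like cells for a value. The cause of these shifts was not tested. With 1 library a group, no interval covers differences between animals, and macrophage-like cells hold a median of 803 and 942.5 UMIs.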

Other observations

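Mesenchymal stromal cell-like cells (23 in ground, 48 in running) and plasma cell-like cells (28 and 24) were too few for a comparison, and their levels are given as values. Stromal cell-like cells had 1.10% nuclear and 1.86% mitochondrial member UMIs in ground and 1.46% and 2.77% in running. Their median cell had 1.13% and 1.05% in ground and 1.33% and 0.665% in running, so the mitochondrial direction differed from that of the sums. The neutrophil markers S100a8 and S100a9 had 34250 and 34076 CPM in this class in ground and 72508 and 66834 in running. Plasma cell-like cells, which secrete antibody, had 1.14% and 1.88% in ground and 1.40% and 1.86% in running, at median depths of 22461.5 and 22902.5 UMIs. Their nuclear share was thus below that of B cell-like cells, 1.49% and 1.51%, in both libraries. A UMI count of 280.5 nuclear member molecules per plasma cell-like cell in ground and 330.5 in running compares with 52.1 and 61.5 per B cell-like cell.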
